A study of Rattus norvegicus with 24 samples.

Results

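The activity genes Egr1, Egr2, Egr3, Egr4, Nr4a1, Nr4a2, Nr4a3, Arc and Npas4 were described across the nucleus accumbens (NAc) of male rats. They were taken by gene symbol, and each of the 9 symbols matched 1 of the 32545 genes in the table of FPKM (fragments per length of gene, set against all fragments of the library), so levels of different genes are compared per length. RNA-seq of the NAc, core and shell together, was held for 24 adult Sprague Dawley rats, 4 in each of 6 groups, whereas the study's methods state 6 sequenced samples per group. The rats were 8 weeks old on arrival.

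In the injection experiment, LPS (lipopolysaccharide, a bacterial cell wall component that activates the immune system) or saline was injected IP 5 times, at 250 µg/kg, over a period that the methods end on day 14. IP heroin or saline followed on 5 consecutive days, days 18 to 22 in the methods, with the heroin dose rising from 1 to 5 mg/kg. The methods put 4 days between the LPS and heroin phases, and the sample labels 1 week. The 4 groups, LPS-Saline, Saline-Saline, LPS-Heroin and Saline-Heroin, are named by the earlier and then the later injections. The labels place death 1 h after the last injection. In the methods every injected rat also spent 30 min in a locomotor chamber, beginning 15 min after that injection, and was killed within 1 h of leaving it, so the interval from heroin to death is not settled here, and it matters for genes whose RNA turns over within the hour. In the self-administration (SA) experiment, rats with jugular catheters took heroin (Heroin-SA, 0.075 mg/kg per infusion) or saline (Saline-SA) in 10 daily sessions of 6 h and were killed immediately after the last one. These rats were housed singly on a reversed light cycle, and the injected rats in pairs.

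All 9 are immediate early genes. Synaptic input, calcium entry and kinase signalling act on transcription factors that already sit in the resting neuron, such as CREB, SRF and MEF2, and the genes are transcribed without new protein being made. Most of the products are transcription factors that carry the signal on to later genes. In the striatum these genes respond to dopamine and glutamate, and their RNA is a common readout of recent neuronal activity. Egr1 to Egr4 encode zinc finger factors, Nr4a1 to Nr4a3 encode orphan nuclear receptors, Npas4 encodes a neuronal factor induced by calcium entry, and Arc encodes a synaptic protein that promotes the removal of AMPA receptors from the membrane.

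Reads on genes numbered 12312878 to 18850240 per library. Striatal markers were present in every library: Ppp1r1b, which encodes the medium spiny neuron protein DARPP-32, lay between 488 and 1452 FPKM (median 786), and the dopamine receptor gene Drd1 between 41.1 and 103 FPKM (median 69.0). The vesicular glutamate transporter gene Slc17a7, which marks cortical glutamatergic neurons, varied from 36.6 to 374 FPKM (median 260) and the choroid plexus gene Ttr from 0 to 318 FPKM. Mitochondrial genes took 10.0% to 15.9% of the reads in the SA libraries and 6.82% to 9.10% in the injected ones. Several libraries stood apart in the activity genes themselves. Within its group, LPS-Heroin 1 had the highest value in 8 of the 9 genes and Heroin-SA 2 also in 8, whereas Saline-Saline 1, Saline-Heroin 2 and LPS-Heroin 3 had the lowest in 8 each and Heroin-SA 4 in 7. Saline-Saline 1 also held the largest summed choroid plexus marker level, 333 FPKM against 0.594 to 32.5 in the other 23 libraries. Results that rest on these libraries are given with and without them.

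To show what the promoters of these genes share beyond their membership, RefSeq sequence of the GRCr8 build was searched from 250 bases before to 50 after each start site. An entry matched 6 of the 9 genes: Egr1, Egr2, Egr4, Nr4a1, Nr4a2 and Npas4. The 250 bases before the start site are printed for 3 genes that were called lower with heroin in all 3 of its comparisons with saline (Egr2, Egr4 and Nr4a1). They are also printed for Npas4, which, like Egr3 and Nr4a2, was called in none. They are written 5′ to 3′ along the gene, and capitals mark TGACG, the short form of the cAMP response element (CRE) that CREB recognises, on either strand (CGTCA on the other), and the serum response element, the site of SRF.
Egr2, chr20:21054442-21054691, minus strand: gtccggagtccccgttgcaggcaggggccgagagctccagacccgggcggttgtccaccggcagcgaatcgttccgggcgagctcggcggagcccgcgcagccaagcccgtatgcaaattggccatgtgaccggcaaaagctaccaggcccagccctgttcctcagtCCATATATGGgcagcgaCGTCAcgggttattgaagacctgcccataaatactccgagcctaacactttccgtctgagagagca
Egr4, chr4:119607818-119608067, minus strand: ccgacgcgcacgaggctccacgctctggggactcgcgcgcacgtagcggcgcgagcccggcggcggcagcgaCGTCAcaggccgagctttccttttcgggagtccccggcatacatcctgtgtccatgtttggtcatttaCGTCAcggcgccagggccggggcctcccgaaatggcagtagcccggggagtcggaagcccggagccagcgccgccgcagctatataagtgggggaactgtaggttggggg
Nr4a1, chr7:134259888-134260137, plus strand: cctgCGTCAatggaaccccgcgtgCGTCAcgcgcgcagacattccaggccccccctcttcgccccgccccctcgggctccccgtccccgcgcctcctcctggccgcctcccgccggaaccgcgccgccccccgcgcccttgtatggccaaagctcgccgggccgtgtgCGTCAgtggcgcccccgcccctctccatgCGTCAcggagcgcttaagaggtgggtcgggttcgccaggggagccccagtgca
Npas4, chr1:211716103-211716352, minus strand: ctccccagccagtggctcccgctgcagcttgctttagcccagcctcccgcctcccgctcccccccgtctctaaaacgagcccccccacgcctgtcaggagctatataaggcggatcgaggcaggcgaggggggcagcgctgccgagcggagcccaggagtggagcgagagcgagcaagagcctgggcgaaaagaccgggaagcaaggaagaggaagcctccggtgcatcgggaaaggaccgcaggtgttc

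The letters TGACG were found in 5 of the 6 promoters, in each case upstream of the start site, and in 21.2% of the 33469 RefSeq promoters of the same length. Nr4a1 held 4 copies, the nearest at position -53 counted from the start site. Egr1 and Egr4 held 2 copies each and Egr2 and Nr4a2 held 1 each, while the letters were not in the Npas4 window. Both Nr4a2, with the letters, and Npas4, without them, were called in none of the heroin comparisons with saline. The serum response element was found in Egr1, with 2 copies, and in Egr2, against 1.64% of all promoters. In Egr2 it began at -83 and the TGACG match at -66, and Egr1 had copies of both at the same positions. Of the other motifs searched on both strands, the full CRE, which contains TGACG, was in 0 of the 6 and in 1.83% of all promoters, and the NBRE that NR4A receptors bind was in 0 and 1.43%. The EGR site GCGTGGG was in Npas4 alone and in 4.33% of all promoters, the NPAS4 motif TCGTG in Egr4 alone and in 17.0%, and the TATA box letters TATAAA in 0 and 14.2%. These matches describe letters in a window and not binding.

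Egr1 was the most abundant of the 9 genes, with a mean of 68.1 FPKM over the 24 libraries. Arc followed with 40.8 FPKM, Nr4a1 with 37.1 FPKM, Egr4 with 29.9 FPKM and Egr3 with 25.8 FPKM. Nr4a2 averaged 13.0 FPKM, Nr4a3 10.1 FPKM, Npas4 7.70 FPKM and Egr2 5.37 FPKM. The smallest read number behind a value was 27, for Egr2 in Heroin-SA 4, where counting alone gives a coefficient of variation of 19.2% against 57.9% between the 4 libraries of that group. No gene overlapped another gene in the annotation. In the rn6 coordinates of the table, Egr2 lay at chr20:22454463-22459025 (minus strand), Nr4a1 at chr7:142905758-142920216 (plus strand) and Arc at chr7:115907097-115910541 (minus strand). LPS-Saline had the highest group mean for all 9 genes, and neighbouring groups in the order of means overlapped except LPS-Saline and Saline-Saline for Nr4a3 and LPS-Heroin and Saline-SA for Egr3. In a bulk sample, fewer cells that express a gene and less RNA per cell cannot be told apart.

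**Figure D1:**
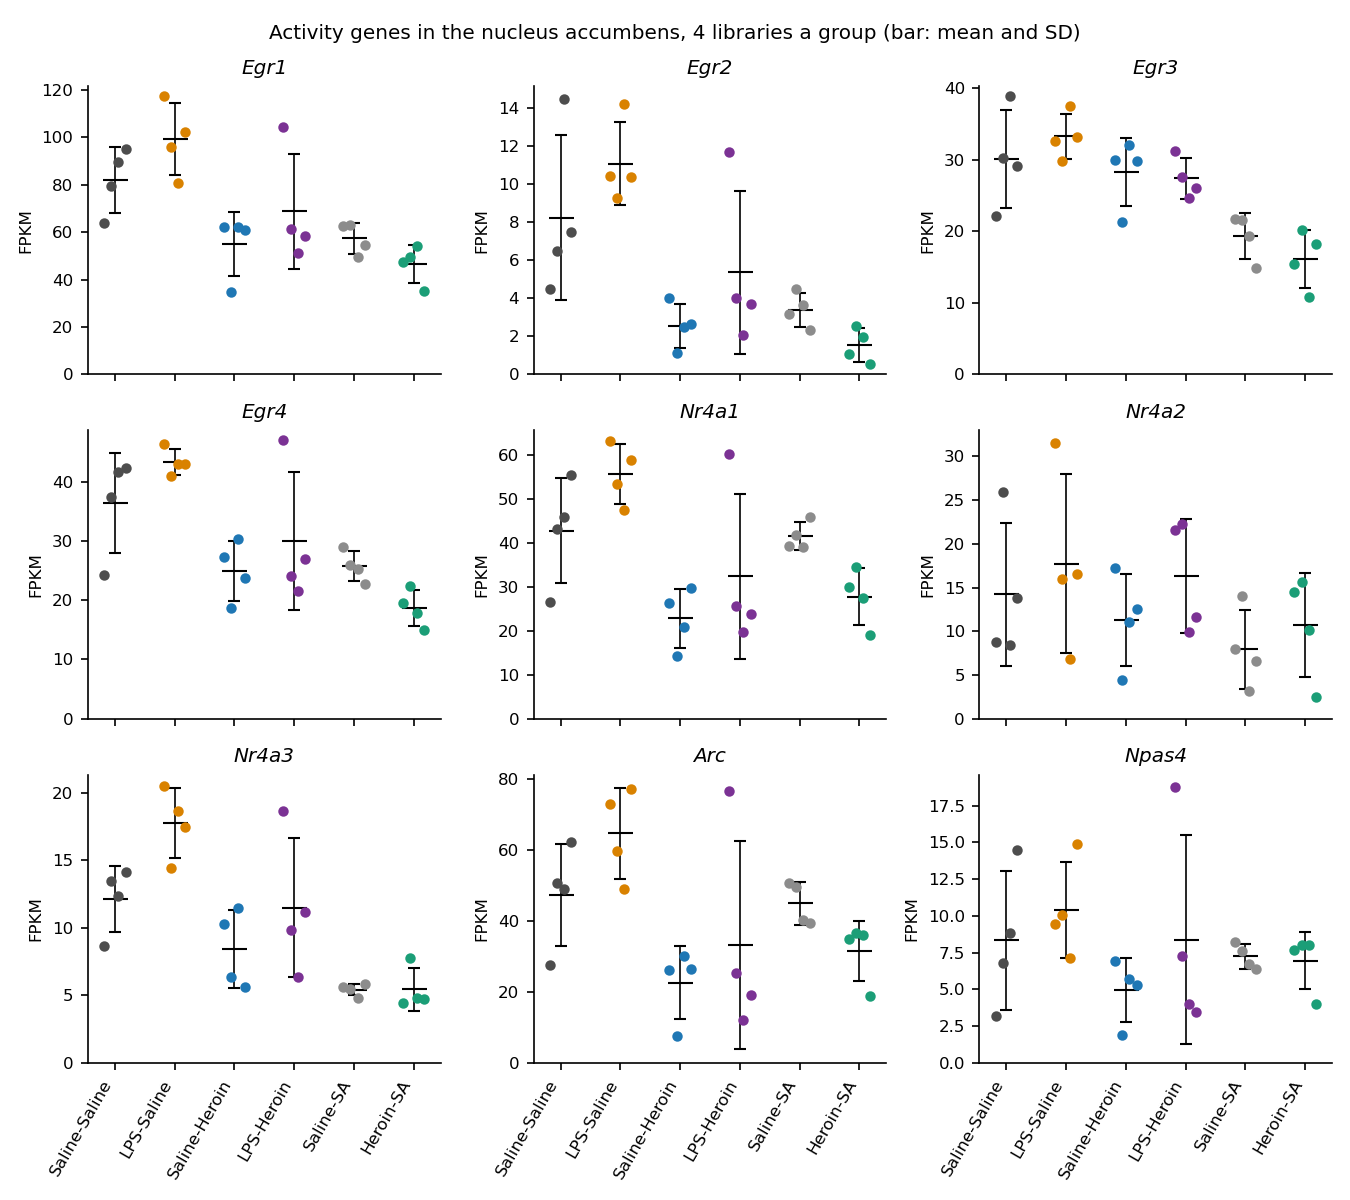
FPKM (linear axis from 0) of the 9 genes in 24 libraries, 4 in each of 6 groups; points are libraries and bars the mean and SD. LPS-Heroin 1 is the high purple point, at 76.5 FPKM for Arc against 12.1 to 25.4 FPKM in the other 3 LPS-Heroin libraries.

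The first question was whether escalating heroin injections changed these genes in rats with no LPS history. After heroin all 9 fold changes were below 0, and Egr2, Arc, Nr4a1, Egr1 and Egr4 passed the limits used throughout, an unadjusted p of at most 0.05 in limma and a change of at least 1.3-fold. Of the 15143 genes tested, 1.67% were called lower. The median log2 fold change of the 9 genes was -0.60, and that of all genes 0.00. In limma no gene of the whole table had an adjusted p under 0.05, in limma-voom on reads recovered from the FPKM also none, and 995 genes had an unadjusted p under 0.05. Without Saline-Heroin 2 the median of the 9 was -0.40 and 4 genes were called, while 4.79% of all genes tested were called in either direction. The Saline-Saline rats also enter 7 of the other comparisons below, 3 of them between single groups, so these share the values of those libraries.

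Egr2 changed most. Its FPKM was 4.48, 6.51, 14.5 and 7.48 in Saline-Saline 1 to 4. It was 3.99, 1.12, 2.47 and 2.62 in Saline-Heroin 1 to 4. All Saline-Heroin libraries lay below all Saline-Saline libraries, and the log2 fold change was -1.64 ± 0.42 (SE, limma adjusted p = 0.750), with an exact permutation p = 0.0286 over the 8 libraries, the smallest that 4 against 4 allows. Arc, the one gene here whose product acts at the synapse, was at 27.5, 50.6, 49.0 and 62.2 FPKM in Saline-Saline. It was at 26.3, 7.48, 30.1 and 26.5 FPKM in Saline-Heroin. The groups overlapped through Saline-Saline 1, at 27.5 FPKM, and Saline-Heroin 2 lay far below the rest. Without Saline-Heroin 2 Arc was at log2 -0.72, still called. The log2 fold change was -1.19 ± 0.44 (SE, limma adjusted p = 0.750, exact permutation p = 0.0571), and without Saline-Saline 2, 3 or 4 in turn it was -1.13, -1.15 and -1.03 with p from 0.0517 to 0.0647.

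Nr4a1, which encodes the nuclear receptor Nur77, stood at 26.6, 43.2, 46.0 and 55.4 FPKM in Saline-Saline and at 26.2, 14.2, 20.9 and 29.8 FPKM in Saline-Heroin. Here too Saline-Saline 1 was the only control library inside the range of the heroin group. Its log2 fold change was -0.91 ± 0.27 (SE, limma adjusted p = 0.750, exact permutation p = 0.0571), and it was called whichever library was left out. Egr1, often used as the marker of activated neurons, read 63.7, 79.6, 89.5 and 95.2 FPKM in Saline-Saline and 62.0, 34.9, 62.1 and 60.7 FPKM in Saline-Heroin. The groups did not overlap (exact permutation p = 0.0286), although 62.1 and 63.7 FPKM lay close together, and the log2 fold change was -0.60 ± 0.20 (SE, limma adjusted p = 0.750) with all libraries and -0.40 without Saline-Heroin 2, called in both. All Saline-Heroin libraries lay below all Saline-Saline libraries for Egr2 and Egr1 and for 1.49% of all genes tested. Egr4 read 24.2, 37.5, 41.7 and 42.3 FPKM in Saline-Saline and 27.3, 18.6, 30.4 and 23.7 FPKM in Saline-Heroin, with overlap through Saline-Saline 1. Its log2 fold change of -0.53 ± 0.20 (SE, limma adjusted p = 0.750, exact permutation p = 0.0857) was called in 3 of the 8 fits that leave out 1 library and lost without Saline-Saline 2, 3 or 4 or Saline-Heroin 2 or 4 (log2 -0.40 to -0.51, p 0.0593 to 0.0771).

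The remaining genes gave values below 0 that did not pass. Nr4a3 came nearest by its limma p, at -0.56 ± 0.25 (SE, limma adjusted p = 0.750, exact permutation p = 0.143). It was called without Saline-Saline 1, Saline-Heroin 1 or Saline-Heroin 3, at log2 -0.72, -0.68 and -0.73. Npas4 was at -0.69 ± 0.50 (SE, limma adjusted p = 0.804, exact permutation p = 0.343) and was called at log2 -1.08 without Saline-Saline 1. Nr4a2 was at -0.33 ± 0.46 (SE, limma adjusted p = 0.910, exact permutation p = 0.571). Egr3, at -0.08 ± 0.18 (SE, limma adjusted p = 0.952, exact permutation p = 0.771), was the gene nearest to 0, with 22.2 to 38.9 FPKM in Saline-Saline and 21.3 to 32.1 FPKM in Saline-Heroin.

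Tissue markers leaned to one side in this comparison. All 8 oligodendrocyte markers had values below 0 (median log2 -0.36, 1 called, Opalin), and so had 9 of the 11 septal and ventral forebrain markers (median -0.35, 1 called, Lhx6). All 14 striatal neuron markers were above 0 (median log2 0.16, 0 called). The part of these lists in the result was not tested. The 11 cortical glutamatergic markers summed to 182 to 374 FPKM in Saline-Saline and 240 to 580 FPKM in Saline-Heroin. None of the 10 that were tested was called, none was at 0 throughout a group, and their median log2 fold change was 0.36. Saline-Heroin 2, the lowest library for 8 activity genes, also had the lowest cortical sum of its group, 240 FPKM against 430 to 580 FPKM. With the cortical marker score of each library as a covariate, which was added after the data had been seen, 8 of the 9 genes were called lower, with a median log2 fold change of -0.91. The 8 were all but Egr3, and in that fit 2.47% of all genes tested were called in either direction.

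The same drug was then compared in rats with an LPS history, LPS-Heroin against LPS-Saline. Egr2, Arc, Nr4a1, Nr4a3, Egr4 and Egr1 were called lower, 6 of 9 genes, while 1.15% of the 15069 genes tested were called lower. All 9 fold changes were again below 0, with a median of -0.60 on the log2 scale. No gene of the table had an adjusted p under 0.05 in limma or limma-voom, and 693 had an unadjusted p under 0.05.

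LPS-Saline libraries 1 to 4 had 10.5, 9.27, 14.3 and 10.4 FPKM of Egr2. LPS-Heroin libraries 1 to 4 had 11.7, 4.01, 2.04 and 3.71 FPKM. LPS-Heroin 1 lay inside the LPS-Saline range and the other 3 below it, and the log2 fold change was -1.31 ± 0.44 (SE, limma adjusted p = 0.977, exact permutation p = 0.114). Arc ran at 73.1, 59.6, 49.1 and 77.2 FPKM in LPS-Saline. In LPS-Heroin it ran at 76.5, 25.4, 12.1 and 19.1 FPKM. The first of these exceeded 3 of the 4 LPS-Saline libraries, and the other 3 lay below all of them. The log2 fold change of Arc was -1.30 ± 0.48 (SE, limma adjusted p = 0.977, exact permutation p = 0.114), lost without LPS-Saline 1 or 4 or LPS-Heroin 3 or 4 (log2 -0.93 to -1.23, p 0.0523 to 0.0614).

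Nr4a1 gave 63.1, 53.4, 47.4 and 58.9 FPKM in LPS-Saline and 60.3, 25.7, 19.6 and 23.8 FPKM in LPS-Heroin, with log2 fold change -0.92 ± 0.30 (SE, limma adjusted p = 0.977, exact permutation p = 0.114). As for Egr2 and Arc, the overlap was through LPS-Heroin 1 alone. Nr4a3, a nuclear receptor gene related to Nr4a1, gave 20.5, 14.4, 18.7 and 17.4 FPKM in LPS-Saline and 18.6, 9.83, 6.33 and 11.2 FPKM in LPS-Heroin. Its log2 fold change of -0.72 ± 0.28 (SE, limma adjusted p = 0.977, exact permutation p = 0.0857) was lost without LPS-Saline 1, 3 or 4 or LPS-Heroin 2 or 3 (log2 -0.47 to -0.72, p 0.0539 to 0.0721). Egr4 gave 46.3, 41.1, 43.1 and 43.1 FPKM in LPS-Saline, the tightest group of the gene, and 47.1, 24.1, 21.6 and 27.0 FPKM in LPS-Heroin. The log2 fold change was -0.60 ± 0.21 (SE, limma adjusted p = 0.977, exact permutation p = 0.143), lost without LPS-Heroin 2 or 3 (log2 -0.52 and -0.47). Egr1 gave 118, 96.1, 80.8 and 102 FPKM in LPS-Saline and 105, 61.4, 51.2 and 58.2 FPKM in LPS-Heroin, with log2 fold change -0.57 ± 0.21 (SE, limma adjusted p = 0.977, exact permutation p = 0.114). This call was lost without LPS-Saline 1 or 4 or LPS-Heroin 2, 3 or 4 (log2 -0.45 to -0.55, p 0.0509 to 0.0679).

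Egr3 had a small and even difference, 29.8 to 37.5 FPKM in LPS-Saline against 24.7 to 31.3 FPKM in LPS-Heroin. At -0.28 ± 0.09 (SE, limma adjusted p = 0.977, exact permutation p = 0.0571) it passed the p limit but not the fold limit. Npas4 was at -0.59 ± 0.48 (SE, limma adjusted p = 0.977, exact permutation p = 0.343), and was called at log2 -1.09 without LPS-Heroin 1, where it read 18.7 FPKM against 3.49 to 7.24 FPKM in the other 3. Nr4a2 was at -0.01 ± 0.44 (SE, limma adjusted p = 0.999, exact permutation p = 0.971). Counts of called genes ran from 2, without LPS-Heroin 3, to 7, without LPS-Heroin 1, and were 3 without LPS-Saline 1, LPS-Saline 4 or LPS-Heroin 2. In the fits with 2 and 7, 2.38% and 2.76% of all genes tested were called in either direction. The cortical markers summed to 182 to 494 FPKM in LPS-Saline and 494 to 550 FPKM in LPS-Heroin, with 0 of 10 called and a median log2 fold change of 0.49, and 9 of 11 septal and ventral forebrain markers were below 0 (median -0.36, 1 called). Without LPS-Heroin 1 the median of the 9 activity genes was -0.98. With the cortical score as a covariate 4 genes were called lower and the median of the 9 was -0.68, while 1.77% of all genes tested were called in either direction. The limma p of Egr2 became 0.0535 and that of Nr4a3 0.0762.

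Pooled over LPS history, injected heroin was compared with saline in 16 libraries. The same 6 genes were called lower as in the rats with an LPS history, and 1.38% of the 15113 genes tested were called lower. Log2 fold changes were -1.48 ± 0.33 (SE, limma adjusted p = 0.516) for Egr2 and -1.24 ± 0.35 (SE, limma adjusted p = 0.547) for Arc. They were -0.92 ± 0.22 (SE, limma adjusted p = 0.547) for Nr4a1 and -0.64 ± 0.20 (SE, limma adjusted p = 0.547) for Nr4a3. Egr1 stood at -0.59 ± 0.16 (SE, limma adjusted p = 0.547). Egr4 stood at -0.57 ± 0.16 (SE, limma adjusted p = 0.547). Each of these 6 calls held in all 16 fits that leave out 1 library. Npas4, at -0.64 ± 0.38 (SE, limma adjusted p = 0.701), was called without Saline-Saline 1 (log2 -0.83) or without LPS-Heroin 1 (log2 -0.89). Egr3 and Nr4a2 were at log2 -0.18 and -0.17 and were not called. With the cortical score as a covariate all genes but Egr3 were called lower.

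Whether the LPS history altered the heroin effect was tested as the interaction in the same 16 libraries. None of the 9 genes was called, against 2.31% of all genes called in either direction, and in limma-voom also none. Estimates lay between log2 -0.20 for Egr3 and 0.34 for Egr2, and their SEs between 0.22 and 0.76. The interaction of Arc was -0.11 ± 0.71 (SE, limma adjusted p = 0.996) and that of Nr4a1 was -0.01 ± 0.44 (SE, limma adjusted p = 1.00). None of the 9 had an unadjusted p under 0.05. The SE exceeded the estimate for each of the 9 genes, so no difference between the heroin effects was detectable and none is shown to be absent.

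**Figure D2:**
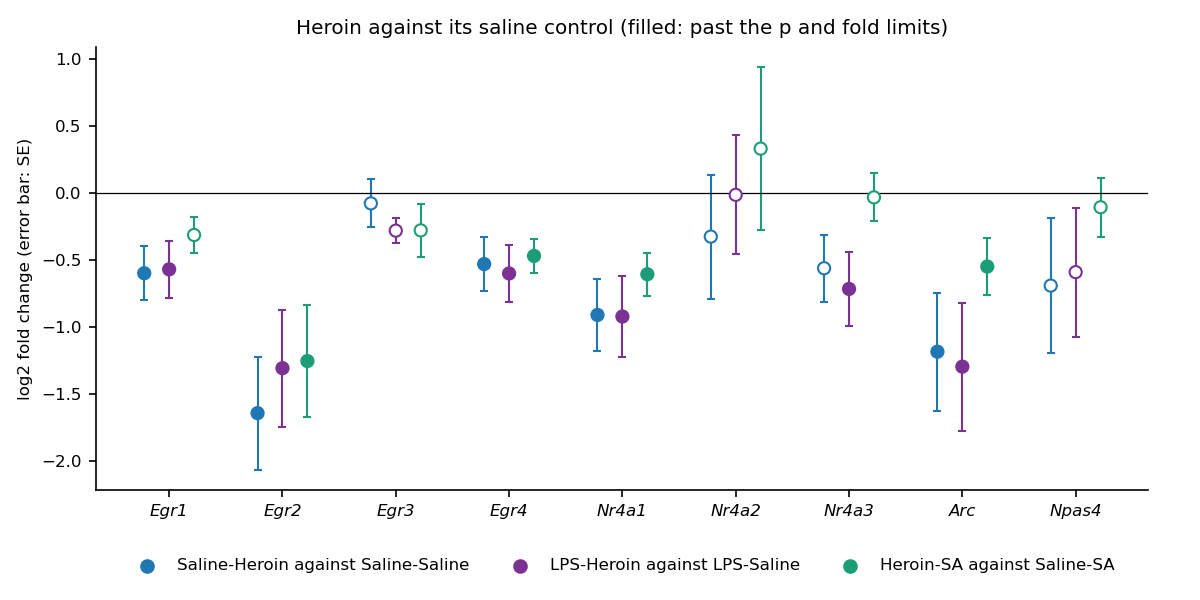
Log2 fold change (y axis, error bars the SE) of the 9 genes with heroin against saline in 3 comparisons of 4 libraries with 4, filled where p was at most 0.05 and the change at least 1.3-fold. Egr2, Egr4, Nr4a1 and Arc are filled in all 3, Egr3, Nr4a2 and Npas4 in none.

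Self-administered heroin was compared with self-administered saline in an experiment that shares no library with the injections. Heroin-SA had lower Egr2, Nr4a1, Arc and Egr4 than Saline-SA, 4 of 9 genes, while 2.41% of the 15024 genes tested were called lower. The median log2 fold change of the 9 genes was -0.31. No gene of the table had an adjusted p under 0.05 in limma or in limma-voom, and 1725 had an unadjusted p under 0.05.

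Saline-SA libraries 1 to 4 read 3.16, 4.48, 3.63 and 2.34 FPKM for Egr2. Heroin-SA libraries 1 to 4 read 1.08, 2.54, 1.96 and 0.556 FPKM. The groups overlapped, with Heroin-SA 2 above Saline-SA 4, and the log2 fold change was -1.26 ± 0.42 (SE, limma adjusted p = 0.350, exact permutation p = 0.0571). Nr4a1 read 39.2, 41.8, 39.1 and 45.9 FPKM in Saline-SA, a tight group. It read 30.02, 34.5, 27.4 and 19.1 FPKM in Heroin-SA. Every Heroin-SA library lay below every Saline-SA library (exact permutation p = 0.0286), and the log2 fold change was -0.61 ± 0.16 (SE, limma adjusted p = 0.331).

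Arc read 50.8, 49.5, 40.2 and 39.4 FPKM in Saline-SA and 34.9, 36.5, 36.1 and 18.8 FPKM in Heroin-SA, again without overlap (exact permutation p = 0.0286). Its log2 fold change was -0.55 ± 0.21 (SE, limma adjusted p = 0.395). Without Heroin-SA 4, the lowest library, it was -0.32 and under the fold limit, and without Saline-SA 1 or 2 it was -0.49 and -0.50 with p of 0.0712 and 0.0679. Egr4 read 29.0, 26.0, 25.3 and 22.7 FPKM in Saline-SA and 19.6, 22.4, 17.9 and 14.96 FPKM in Heroin-SA, without overlap (exact permutation p = 0.0286). Its log2 fold change was -0.47 ± 0.13 (SE, limma adjusted p = 0.331) and -0.37 without Heroin-SA 4, just under the limit. Without that library 2 genes were called, Egr2 and Nr4a1. With all libraries, Heroin-SA lay wholly below Saline-SA for Nr4a1, Arc and Egr4 and for 3.24% of all genes tested.

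Egr1 was at -0.31 ± 0.14 (SE, limma adjusted p = 0.426, exact permutation p = 0.0571), past the p limit and under the fold limit. Egr3 was at -0.28 ± 0.20 (SE, limma adjusted p = 0.596, exact permutation p = 0.257). Nr4a3, Npas4 and Nr4a2 were at log2 -0.03, -0.11 and 0.33, and the last was the only value above 0. Heroin-SA 4 also had the lowest cortical marker sum of its group, 143 FPKM against 423 to 489 FPKM in the others, and Saline-SA ran from 134 to 349 FPKM. None of the 10 cortical markers tested was called. With the cortical score as a covariate 5 genes were called lower, Egr1 in addition.

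The effect of self-administered heroin less that of injected heroin in rats without LPS was tested in the 16 libraries of these 4 groups. None of the 9 genes was called in limma or in limma-voom, against 4.38% of all genes called in either direction, and none had an unadjusted p under 0.05. The estimates were positive for all genes but Egr3, from log2 0.06 for Egr4 to 0.66 for Nr4a2. That of Arc was 0.64 ± 0.53 (SE, limma adjusted p = 0.847). That of Nr4a3 was 0.53 ± 0.33 (SE, limma adjusted p = 0.815). The median of the 9 was log2 0.39 with all libraries and 0.10 without Saline-Heroin 2, and over the fits that leave out 1 library the value of Arc went as low as 0.17. The experiments also differed in dose, route, the chamber session and the time from drug to death, which cannot be told apart.

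LPS injections that had ended days before, without heroin, were examined in LPS-Saline against Saline-Saline. All 9 fold changes were above 0 with a median of 0.42 on the log2 scale, and 1 gene, Nr4a3, was called higher, while 1.21% of the 15119 genes tested were called higher. No gene had an adjusted p under 0.05 in limma or in limma-voom, and 1002 had an unadjusted p under 0.05. Nr4a3 read 8.66, 13.4, 12.3 and 14.1 FPKM in Saline-Saline. It read 20.5, 14.4, 18.7 and 17.4 FPKM in LPS-Saline. The groups did not overlap, at 14.1 and 14.4 FPKM where they came closest (exact permutation p = 0.0286), the log2 fold change was 0.56 ± 0.17 (SE, limma adjusted p = 0.679), and it was called whichever library was left out. All LPS-Saline libraries lay above all Saline-Saline libraries in 2.34% of all genes tested. Egr2 was at 0.54 ± 0.31 (SE, limma adjusted p = 0.764, exact permutation p = 0.2) and Arc at 0.49 ± 0.24 (SE, limma adjusted p = 0.750, exact permutation p = 0.171). Nr4a1 was at 0.42 ± 0.20 (SE, limma adjusted p = 0.746, exact permutation p = 0.114) and Npas4 at 0.46 ± 0.41 (SE, limma adjusted p = 0.850, exact permutation p = 0.371). Egr4, Egr1, Nr4a2 and Egr3 were at log2 0.28, 0.28, 0.28 and 0.17. Without Saline-Saline 1 the median of the 9 was 0.16, with 1 gene called, and without Saline-Saline 4 there were 3 genes called. In these fits 2.06% and 2.87% of all genes tested were called in either direction. Tissue markers also leaned to one side, with none called. All 6 choroid plexus markers tested were below 0 (median log2 -1.11), as were 10 of 11 septal and ventral forebrain markers (-0.43) and all 8 oligodendrocyte markers (-0.25), and 9 of 10 cortical markers were above 0 (0.27). With the cortical score as a covariate the median of the 9 was 0.27 and Nr4a2 was at -0.11, and the part of the other lists was not tested.

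Pooled over heroin, the LPS effect was positive for all 9 genes, and Nr4a3 and Egr2 were called higher, against 0.92% of the 15113 genes tested. Log2 fold changes were 0.48 ± 0.20 (SE, limma adjusted p = 0.730) for Nr4a3 and 0.71 ± 0.33 (SE, limma adjusted p = 0.741) for Egr2. Both rest on single libraries. The count of called genes ran from 0 to 3 over the 16 fits that leave out 1 library, Nr4a3 being called in 10 of them at log2 0.35 to 0.60 and Egr2 in 3 at log2 0.47 to 0.88. It was 0 without Saline-Saline 1, LPS-Saline 1, LPS-Saline 3, Saline-Heroin 2, Saline-Heroin 4 or LPS-Heroin 1, and 1 without Saline-Saline 2, Saline-Saline 4, LPS-Saline 2, LPS-Saline 4, Saline-Heroin 3, LPS-Heroin 2 or LPS-Heroin 4. With the cortical score as a covariate it was also 0. The median of the 9 was log2 0.43 with all libraries, 0.24 without LPS-Heroin 1, 0.23 without Saline-Heroin 2 and 0.20 with the covariate.

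Among heroin-injected rats the LPS history was compared in LPS-Heroin against Saline-Heroin. None of the 9 genes was called in limma or limma-voom, against 2.2% of the 15121 genes tested called in either direction, and none had an unadjusted p under 0.05. Of the 9 values 8 were above 0, with a median of 0.40 on the log2 scale. This median was 0.06 without LPS-Heroin 1, 0.16 without Saline-Heroin 2, 0.65 without LPS-Heroin 3 and 0.12 with the cortical score as a covariate. Egr2 was at 0.87 ± 0.52 (SE, limma adjusted p = 1.00, exact permutation p = 0.257), and was called at log2 1.23 without LPS-Heroin 3. Nr4a2 was at 0.59 ± 0.42 (SE, limma adjusted p = 1.00, exact permutation p = 0.286) and Egr3 at -0.04 ± 0.13 (SE, limma adjusted p = 1.00, exact permutation p = 0.857).

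Both treatments together were compared with neither in LPS-Heroin against Saline-Saline. None of the 9 genes was called in limma or in limma-voom, and none had an unadjusted p under 0.05, while 5.42% of the 15134 genes tested were called in either direction. The median log2 fold change of the 9 was -0.29. Arc was at -0.81 ± 0.51 (SE, limma adjusted p = 0.603, exact permutation p = 0.286) and Egr2 at -0.77 ± 0.51 (SE, limma adjusted p = 0.623, exact permutation p = 0.229). The count of called genes depended on a single library. LPS-Heroin 1 read 76.5 FPKM for Arc, 60.3 FPKM for Nr4a1 and 105 FPKM for Egr1, each above every Saline-Saline library. In the other 3 LPS-Heroin libraries these genes lay at 12.1 to 25.4, 19.6 to 25.7 and 51.2 to 61.4 FPKM, below every Saline-Saline library.

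Without LPS-Heroin 1, 5 genes were called lower, namely Arc (log2 -1.33), Egr2 (-1.24), Nr4a1 (-0.85), Egr4 (-0.56) and Egr1 (-0.51). In that fit 5.04% of all genes tested were called in either direction. Without Saline-Saline 1 alone none was called. Without both libraries, a choice made after their values were seen, 7 genes were called lower, adding Npas4 (log2 -1.02) and Nr4a3 (-0.58), and Arc was at -1.57. Of all genes tested 4.23% were then called in either direction. Within its group LPS-Heroin 1 was highest and Saline-Saline 1 lowest in 8 of the 9 genes. Leaving out LPS-Heroin 1, or both, therefore lowers the fold changes by itself, and neither the 5 nor the 7 calls are a separate result. In neither fit had any of the 9 genes a limma adjusted p under 0.05. LPS-Heroin 1 had 550 FPKM summed over the cortical markers, in a group that spanned 494 to 550 FPKM, and 1633 FPKM summed over the 14 striatal markers, against 2047 to 2545 FPKM in the rest of its group. The cortical and septal lists differed here, with 6 of 11 cortical markers called higher (median log2 0.81) and 6 of 11 septal and ventral forebrain markers called lower (median log2 -0.999, sums of 72.3 to 161 FPKM in Saline-Saline and 32.3 to 66.5 FPKM in LPS-Heroin). The part of the septal list was not tested. When the cortical score was a covariate, 0 of the 9 were called, at a median log2 fold change of -0.52. Cortical scores were 2.66 to 3.60 in Saline-Saline and 3.76 to 4.06 in LPS-Heroin. As they did not overlap, this fit cannot tell the treatments from the cortical markers.

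**Figure D3:**
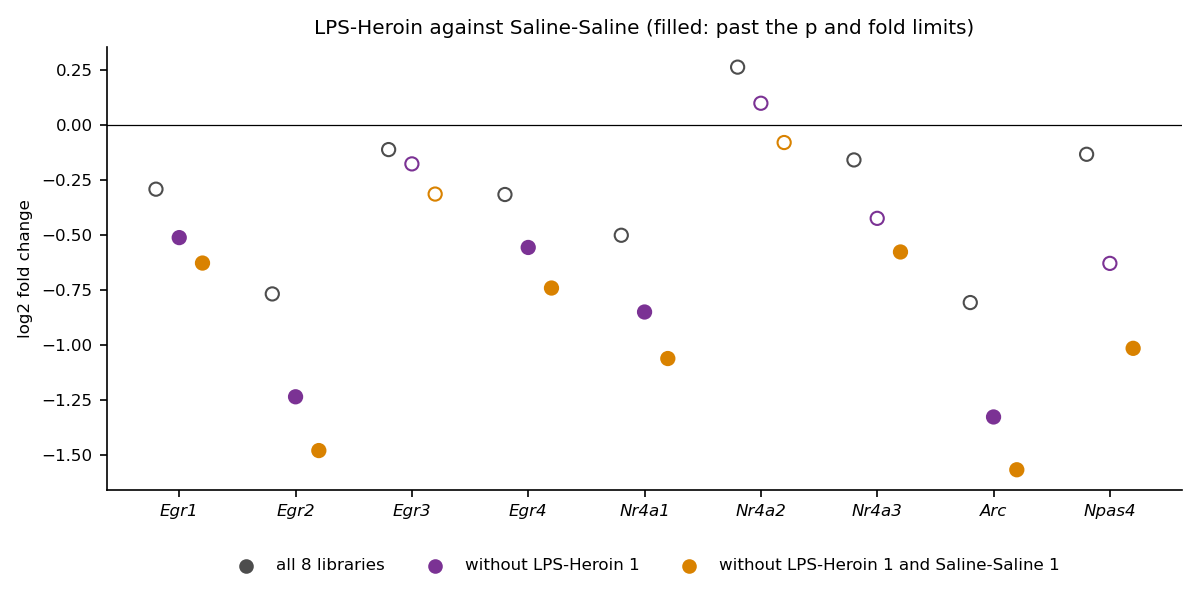
Log2 fold change (y axis) of the 9 genes in LPS-Heroin against Saline-Saline with all 8 libraries (grey), without LPS-Heroin 1 (purple) and without LPS-Heroin 1 and Saline-Saline 1 (orange), filled where p was at most 0.05 and the change at least 1.3-fold. The number of filled points goes from 0 to 5 and 7. Leaving out both libraries together was chosen after their values were seen.

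The control groups of the 2 experiments were set side by side in Saline-SA against Saline-Saline. Nr4a3, Egr2, Egr3, Egr1 and Egr4 were called lower in Saline-SA, 5 of 9 genes, but 14.3% of the 15150 genes tested were called lower and 8.46% higher, and 3584 genes had an adjusted p under 0.05 in limma. Nr4a3 read 5.59, 5.43, 4.83 and 5.86 FPKM in Saline-SA, all below the 8.66 to 14.1 FPKM of Saline-Saline, with a log2 fold change of -1.13 ± 0.15 (SE, limma adjusted p = 0.00161). Egr3 read 21.7, 21.6, 19.4 and 14.8 FPKM in Saline-SA, against 22.2, 30.3, 38.9 and 29.1 FPKM in Saline-Saline. Its groups did not overlap, and the log2 fold change was -0.62 ± 0.18 (SE, limma adjusted p = 0.0344). Egr1 did not overlap either, at 49.7 to 62.9 FPKM against 63.7 to 95.2 FPKM, with -0.50 ± 0.13 (SE, limma adjusted p = 0.0253). All Saline-SA libraries lay below all Saline-Saline libraries for these 3 of the 9 genes and for 15.8% of all genes tested. Egr2 was at -1.15 ± 0.34 (SE, limma adjusted p = 0.0363, exact permutation p = 0.0571). Egr4 was at -0.47 ± 0.17 (SE, limma adjusted p = 0.0796, exact permutation p = 0.114) and lost its call without Saline-Saline 2, 3 or 4 or Saline-SA 4 (log2 -0.65 to -0.39 over the 8 fits that leave out 1 library), and with mitochondrial genes left out of the library size.

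Nr4a2 was at -0.87 ± 0.47 (SE, limma adjusted p = 0.219, exact permutation p = 0.171) and was not called, but it was called with the replicate block at the same value and with the cortical score as a covariate at log2 -0.64. Nr4a1, Arc and Npas4 lay near 0 in the same comparison. Nr4a1 was at 0.00 ± 0.19 (SE, limma adjusted p = 0.996, exact permutation p = 1.00), Arc at -0.02 ± 0.23 (SE, limma adjusted p = 0.952, exact permutation p = 0.971) and Npas4 at -0.01 ± 0.38 (SE, limma adjusted p = 0.984, exact permutation p = 0.971). Arc read 39.4 to 50.8 FPKM in Saline-SA and 27.5 to 62.2 FPKM in Saline-Saline. The striatal markers, 8 of 14 called higher with sums of 2314 to 3898 FPKM against 1543 to 3012 FPKM, the oligodendrocyte markers, 6 of 8 called lower with sums of 4504 to 5119 FPKM against 4746 to 7347 FPKM, and the mitochondrial share moved with these groups, and their part was not tested apart from the library size. Housing, light cycle, catheter, handling and the time of death differ between the experiments as well and cannot be told apart.

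Beyond the group means, the activity genes varied together from rat to rat. Deviations of log2(FPKM + 0.1) from the group means were correlated over the 24 libraries for all 36 pairs. By permutation within groups, 31 pairs had an adjusted p under 0.05 for Pearson's r and 29 for Spearman's rho, and the median r was 0.69. Egr1 and Arc were most alike, at r = 0.96 (rho = 0.90, adjusted permutation p = 0.00036 for r, and r = 0.92 without the 2 libraries farthest from the median of Egr1). Arc and Npas4 had r = 0.93, Nr4a1 and Arc r = 0.91, and Egr1 and Npas4 r = 0.90. Over the 36 pairs the median r without the 2 farthest libraries was 0.63.

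Egr3 and Nr4a2 followed the others least. The median r of Egr3 with the other 8 genes was 0.43 and that of Nr4a2 was 0.53, against 0.84 for Arc, 0.83 for Egr4, 0.82 for Egr1 and 0.82 for Nr4a1. Egr3 and Nr4a2 had the lowest r of all pairs, 0.14, with an adjusted permutation p of 0.608. The first principal component of the striatal and cortical marker scores was then removed from each gene. After that, 33 of the 36 pairs had an adjusted p under 0.05 and the median r was 0.68. The rest of the variation in these scores was left in. All 24 values of a pair come from the same libraries, so differences in library composition enter both genes.

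**Figure D4:**
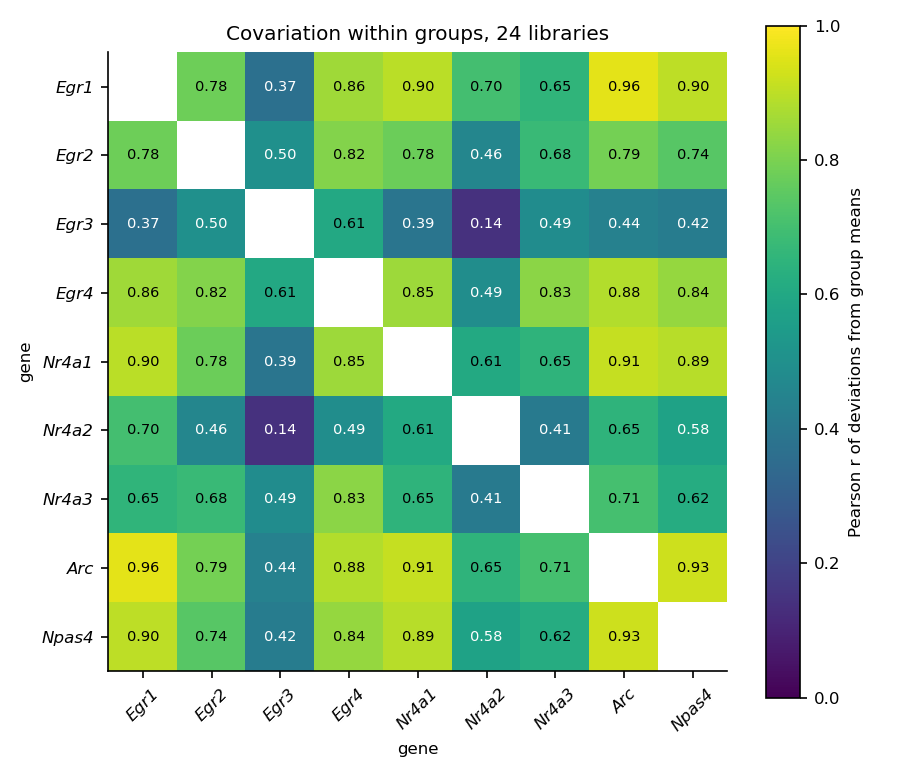
Pearson r (colour and number) between the 9 genes over 24 libraries, from deviations of log2(FPKM + 0.1) from group means. The values run from 0.14 for Egr3 and Nr4a2 to 0.96 for Egr1 and Arc.

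Nr4a2, which cells of the claustrum and the deep cortical layers express without stimulation, moved with the cortical markers. Of 36 relations between the 9 genes and 4 marker lists, 4 had an adjusted permutation p under 0.05, all with the cortical list. Nr4a2 had r = 0.87 with the cortical score over the 24 libraries (rho = 0.73, adjusted p = 0.00288 for r and 0.0256 for rho, and r = 0.80 without the 2 farthest libraries). The others were Egr1 at r = 0.58 (rho = 0.52, 0.48 without 2), Npas4 at r = 0.49 (rho = 0.48, 0.42 without 2) and Arc at r = 0.49 (rho = 0.52, 0.42 without 2), with adjusted permutation p of 0.0307, 0.0445 and 0.0307 for r and 0.151, 0.157 and 0.119 for rho. Egr3 stood apart with r = 0.60 with the striatal score (adjusted permutation p = 0.0550) and -0.05 with the cortical one. The library FPKM of Nr4a2 shows the same spread, 14.5, 15.6, 10.1 and 2.52 in Heroin-SA 1 to 4, whose summed cortical markers were 433, 423, 489 and 143 FPKM.

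**Figure D5:**
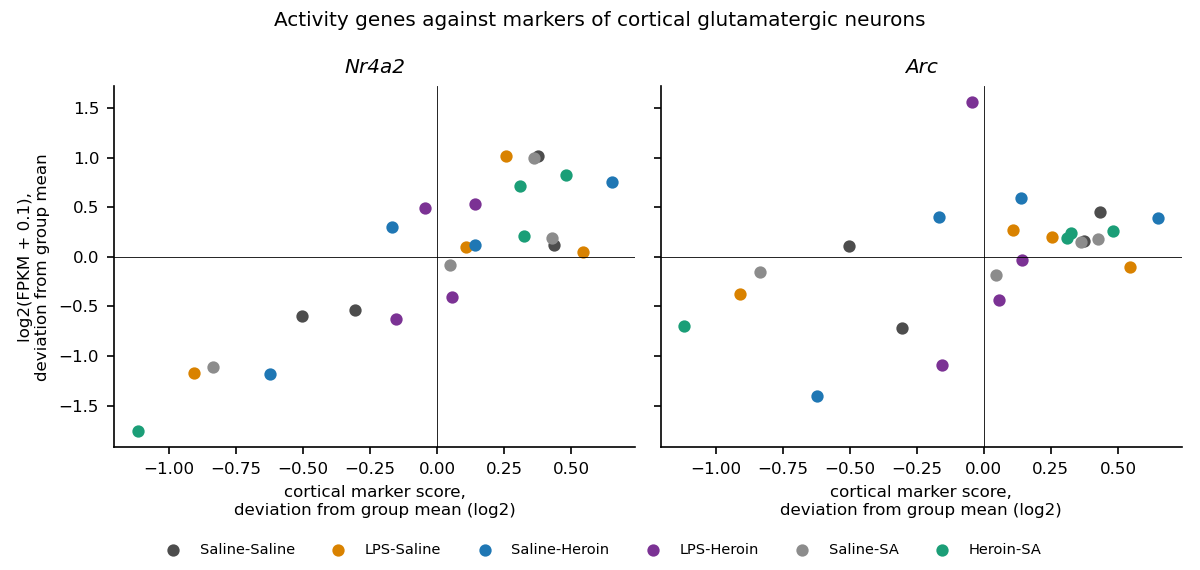
Nr4a2 and Arc (y axis, log2(FPKM + 0.1)) against the mean log2 level of the cortical markers (x axis), both as deviations from group means, for 24 libraries coloured by group. Pearson r is 0.87 for Nr4a2 and 0.49 for Arc, and LPS-Heroin 1 is the topmost point of Arc.

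Among 13863 genes with a mean of at least 1 FPKM, the 3 most like each activity gene in their deviations were taken, as a description. Likeness was Pearson's r over the 24 libraries, and the 9 activity genes themselves were not counted among the 3. Junb and Fos, which encode subunits of the AP-1 transcription factor, recurred. Junb was among the 3 for Egr2 (r = 0.82), Egr4 (0.90), Nr4a1 (0.89), Arc (0.85) and Npas4 (0.84), and Fos for Egr1 (0.86), Nr4a1 (0.86), Arc (0.87) and Npas4 (0.84). Outside the activity genes, Egr1 was followed most closely by Klf10 (0.88) and Arc by the ERK phosphatase gene Dusp6 (0.87). Ptgs2, the gene of cyclooxygenase-2, was among the 3 for Egr4 (0.83) and Npas4 (0.82), and Fosb for Nr4a3 (0.78) after Pprc1 (0.81). None of the 3 for Nr4a2 or Egr3 was an AP-1 gene or a further activity-regulated gene of the lists below. For Nr4a2 these were Hes1 (0.93), Galnt14 (0.92) and Ntng2 (0.92), and for Egr3 they were Fkbp11 (0.89), Ttbk1 (0.88) and Ankrd63 (0.87).

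Other genes of the same response were taken from lists written from general knowledge. Of the 7 AP-1 genes tested, 4 were called lower in Saline-Heroin against Saline-Saline, 3 in LPS-Heroin against LPS-Saline and 3 of 6 in Heroin-SA against Saline-SA, and none was called higher. Of all genes tested 1.67%, 1.15% and 2.41% were called lower in these comparisons. Fos was at log2 -0.96 ± 0.20 (SE, n = 4 per group) in the first, -0.96 ± 0.32 in the second and -0.64 ± 0.27 in the third. Fosb was at -0.59 ± 0.21, -0.60 ± 0.24 and -0.69 ± 0.19, and Junb at -0.71 ± 0.24, -0.56 ± 0.23 and -0.43 ± 0.12. Fosl2 was called in the first alone, at -0.71 ± 0.15. Median log2 fold changes of the AP-1 list were -0.59, -0.50 and -0.27.

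Among 42 further activity-regulated genes, 4 were called lower and 0 higher in Saline-Heroin against Saline-Saline, and 6 and 0 in LPS-Heroin against LPS-Saline. In Heroin-SA against Saline-SA 3 of 41 were called lower and 3 higher, where 2.41% of all genes were called lower and 3.03% higher. Dusp5, which encodes a nuclear ERK phosphatase, was called lower in all 3, at log2 -0.78 ± 0.17, -0.58 ± 0.23 and -0.63 ± 0.26 (SE). Trib1 was called lower with both injections, at -0.54 ± 0.13 and -0.61 ± 0.25, and Tiparp at -0.48 ± 0.13 and -0.65 ± 0.26. Plk3 was called lower in Saline-Heroin (-0.50 ± 0.19), Scg2 (-0.40 ± 0.14) and Dusp4 (-0.69 ± 0.24) in LPS-Heroin against LPS-Saline, and Gadd45g in Heroin-SA (-0.40 ± 0.16). Sik1, a kinase gene induced by cAMP, was called lower in LPS-Heroin against LPS-Saline (-0.44 ± 0.10) and in Heroin-SA (-0.42 ± 0.11). In Heroin-SA Rasgrp1 (0.51 ± 0.10), Klf6 (0.75 ± 0.24) and Homer1 (0.59 ± 0.23) were called higher. The list's medians were log2 -0.09, -0.18 and 0.01 in the 3 comparisons, where those of the 9 genes were -0.60, -0.60 and -0.31.

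Partners and regulators of these genes were counted against all genes called in either direction, 3.07% in Saline-Heroin against Saline-Saline, 2.29% in LPS-Heroin against LPS-Saline and 5.44% in Heroin-SA against Saline-SA. Of 13 partners and corepressors, such as the EGR corepressors Nab1 and Nab2 and the NR4A partners of the RXR family, 1 was called in Saline-Heroin against Saline-Saline, the kinase gene Camk2a (log2 0.41 ± 0.11, SE), and 0 in LPS-Heroin against LPS-Saline and in Heroin-SA against Saline-SA. Of 23 upstream factors and kinases 1 was called in the first, Mef2c (0.72 ± 0.20), and 0 in the second. In Heroin-SA 3 were called higher, namely the kinase genes Camkk2 (0.52 ± 0.15) and Camk4 (0.55 ± 0.17) and the SRF cofactor gene Elk4 (0.43 ± 0.13). In LPS-Saline against Saline-Saline 6 of the 42 further activity-regulated genes were called higher, among them Tiparp (0.40 ± 0.10), Trib1 (0.54 ± 0.16), Homer1 (0.41 ± 0.13) and Pcsk1 (0.68 ± 0.27), where 1.21% of all genes were, and 0 of the 7 AP-1 genes, whose median log2 fold change was 0.29.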

How the data were processed

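NAc RNA from 24 rats was sequenced by a provider. Per the labels and the study's methods, reads were trimmed with fastp, aligned with HISAT2 to rn6 and counted with featureCounts (libraries were directional, and tool versions and strand use in counting are not given in the sources used here), and the authors deposited an FPKM value (fragments per length of gene and library total) for each of 32545 genes. FPKM times gene length was a whole multiple of 1 step in each library for 100% of the values (tolerance 0.01), which gave read numbers. Libraries held 12312878 to 18850240 reads on genes, which limits precision by counting error only.

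Groups came from the sample labels. For each comparison limma-trend (limma 3.58.1, R 4.3.3) was fitted to log2(FPKM + 0.1) over genes with a mean of at least 0.5 FPKM in the libraries compared, without covariates, with Benjamini-Hochberg adjustment over all genes tested. Changes of genes with low FPKM come out too small on this scale. A gene was called at an unadjusted p of at most 0.05 and at least 1.3-fold, close to the study's own limits for pattern analyses. Single genes were compared by a 2-sided exact permutation test in 63 tests, of which 9 reached 0.0286 (the smallest p possible) and none holds after adjustment over the 63. Correlations used 100000 permutations within groups and Benjamini-Hochberg adjustment (Python 3.11.15, SciPy 1.17.1). Alternatives were pseudocounts of 1 and 0.01, no filter or a mean of at least 1 FPKM, quantile normalization, all 6 groups in one fit, limma-voom on recovered reads, no fold limit, the replicate number as a block and each library left out. Mitochondrial genes out of the library size, the cortical marker score as a covariate and 2 libraries left out together were chosen later, with the values known. The fit was also run on simulated reads, with the same spread setting for every gene and genes drawn independently. That run does not cover the spread and covariation of the activity genes.

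The members, gene lists and tests were chosen with earlier results of these data known. All 9 genes are named. Of the other lists, the called genes of smallest p, at most 4 a list, are named in the 3 heroin comparisons and the 2 of saline controls and LPS alone. Marker lists are mostly given by counts and sums. Dusp5, Trib1 and Homer1 were also named at lower ranks, after their values were seen. The labels call the samples biological replicates. Promoter sequences are from RefSeq, build GRCr8, and carry no coordinates of the files.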

Additional observations from a re-analysis of the deposited data

Results flagged for a closer look

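Within each group of 4 libraries, the gap between the highest or lowest library and its nearest neighbour was divided by the range of the group, and shares above Dixon's 95% limit for 4 samples were picked out. Over the 54 sets of 9 genes by 6 groups, 6 passed, and chance flags about 1 in 20 groups. In Saline-Heroin, library 2 stood below the rest for Egr1, at 34.9 FPKM against 60.7 to 62.1 FPKM (gap share 0.949), and for Arc, at 7.48 against 26.3 to 30.1 FPKM (0.83). In Heroin-SA, library 4 stood below the rest for Arc, at 18.8 against 34.9 to 36.5 FPKM (0.908), and for Npas4, at 4.03 against 7.67 to 8.03 FPKM (0.91). Both libraries had the lowest cortical marker sum of their group. In the same group, library 2 stood above the rest for Nr4a3, at 7.76 against 4.42 to 4.81 FPKM (0.884). In LPS-Heroin, library 1 stood above the rest for Nr4a1, at 60.3 against 19.6 to 25.7 FPKM (0.851). The genes of a library are not independent of each other, since they varied together within groups.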

How the results depend on the processing

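Counts of called genes among the 9 were compared with those under each alternative. With a pseudocount of 1 or 0.01, a mean of at least 1 FPKM, quantile normalization, all 6 groups in one fit, limma-voom, no fold limit or mitochondrial genes left out of the library size, every count of the 11 comparisons stayed within 1.5 times its value. Without a filter on low values, the LPS main effect had 1 called gene instead of 2. With the cortical marker score as a covariate, Saline-Heroin against Saline-Saline had 8, the LPS main effect 0 and the self-administered less the injected heroin effect 1. Without Saline-Saline 1 and LPS-Heroin 1 together, LPS-Heroin against Saline-Saline had 7 and the LPS main effect 0. These libraries were left out together with the values of the 9 genes known. The cause of the shifts without a filter and with the covariate was not tested. No value of a called gene changed direction under any alternative run.

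Leaving out 1 library at a time gave 1 to 3 called genes in LPS-Saline against Saline-Saline, 3 to 7 in Saline-Heroin against Saline-Saline, 0 to 5 in LPS-Heroin against Saline-Saline, 2 to 7 in LPS-Heroin against LPS-Saline, 0 to 1 in LPS-Heroin against Saline-Heroin, 2 to 5 in Heroin-SA against Saline-SA, 4 to 6 in Saline-SA against Saline-Saline, 6 to 7 for injected heroin, 0 to 3 for LPS and 0 to 1 for the self-administered less the injected effect, with 0 throughout for the interaction.

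Whether the replicate numbers mark anything shared between groups is not settled here. Deviations of same-numbered libraries correlated at -0.24 to 0.18, and in no comparison were all 4 pairs above 0.1. Between LPS-Heroin and Saline-SA all 4 were above 0, at 0.06 to 0.14. Between Saline-Heroin and LPS-Heroin all 4 were below 0, at -0.16 to -0.01. With the number as a replicate block, LPS-Saline against Saline-Saline had 2 called genes, the LPS main effect 1 and Saline-SA against Saline-Saline 6, and no other count moved.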

Other observations

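The lists of related genes were also compared between the control groups of the experiments, where 14.3% of all genes tested were called lower in Saline-SA than in Saline-Saline and 8.46% higher. Of 6 AP-1 genes tested 3 were called lower and 0 higher, Fosl2 at log2 -1.57 ± 0.23 (SE, n = 4 per group), Fos at -1.20 ± 0.19 and Fosb at -0.63 ± 0.19. Of 41 further activity-regulated genes 14 were called lower and 2 higher, led by the clock gene Per1 (-0.56 ± 0.06), Tiparp (-0.84 ± 0.09), Scg2 (-0.74 ± 0.09) and Homer1 (-1.19 ± 0.20). Of 23 upstream factors and kinases 6 were called lower and 2 higher, among them Creb1, the gene of CREB itself (-1.03 ± 0.16), the protein kinase A subunit gene Prkacb (-1.19 ± 0.15) and, in the other direction, the coactivator genes Crebbp (0.79 ± 0.12) and Crtc2 (0.38 ± 0.07). Of 13 partners Camk2a was called lower (-0.54 ± 0.08) and Rxrg higher (0.78 ± 0.15), which is no larger a share than among all genes. The experiments differ in housing, light cycle, handling and time of death, which cannot be told apart.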
